A study of Mus musculus with 24 samples.

Results

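The major urinary protein transcripts measured here were those of Mup5, Mup20, Mup3, Mup21 and Mup6. Members were taken by symbol, from a set of 6 Mup genes, as every probe set mapped to 1 of those symbols alone; 5 of the 6 had such a probe set, 1 each, among 18820 genes tested, and Mup4 was not listed in the probe table. The probe sets were 10513514 for Mup5, 10513521 for Mup20, 10513529 for Mup3, 10513538 for Mup21 and 10608668 for Mup6. Because the Mup genes are close copies of each other, a probe set may also collect signal from other members of the family.

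Livers came from 24 male C57BL/6 mice aged 9 to 12 weeks and fed chow, with 1 whole-transcript array per mouse and 6 mice in each of 4 groups. FXR-/- mice, a published whole-body knockout line of the bile acid receptor FXR (gene Nr1h4; FXRKO in the sample titles), were gavaged once a day for 7 days with obeticholic acid (OCA, also INT-747, a semi-synthetic FXR agonist; 10 mg/kg/day) or with its vehicle, 1% methyl cellulose. Wild-type mice received the same OCA or vehicle treatment. The labels do not say whether the wild-type mice were littermates of the FXR-/- mice, and the genotype groups may differ in more than FXR.

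Major urinary proteins are small lipocalins, barrel-shaped carriers of volatile ligands, that hepatocytes secrete into the blood and that the kidney passes into urine, where they bind and slowly release pheromones. Many are made at higher levels in male liver, where pulses of growth hormone act through the growth hormone receptor and STAT5B, and androgens, thyroid hormone and glucocorticoids are also known to raise their expression. Mup20 encodes darcin, a male urinary protein that acts as a pheromone of its own, and Mup4 is known from nasal tissue and glands as well as from liver.

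The 250 bases upstream of the annotated start were taken from RefSeq (GRCm38.p6, chromosome 4), whose promoter table matched 4 of the 6 members: Mup3, Mup4, Mup6 and Mup21. Mup3 and Mup21 are shown because both transcripts were lower in FXR-/- livers, and Mup6 because its values overlapped between genotypes (both described below). Capitals mark matches to TATATAA, the core element that places the transcription start, or to TGTTCT, the half-site of the glucocorticoid receptor.
Mup3, chr4:62087318-62087567, minus strand: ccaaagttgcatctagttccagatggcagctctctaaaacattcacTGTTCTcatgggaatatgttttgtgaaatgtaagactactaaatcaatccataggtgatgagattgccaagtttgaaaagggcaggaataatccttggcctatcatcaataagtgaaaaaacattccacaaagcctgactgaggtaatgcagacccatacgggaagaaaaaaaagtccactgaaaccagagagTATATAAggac
Mup21, chr4:62150842-62151091, minus strand: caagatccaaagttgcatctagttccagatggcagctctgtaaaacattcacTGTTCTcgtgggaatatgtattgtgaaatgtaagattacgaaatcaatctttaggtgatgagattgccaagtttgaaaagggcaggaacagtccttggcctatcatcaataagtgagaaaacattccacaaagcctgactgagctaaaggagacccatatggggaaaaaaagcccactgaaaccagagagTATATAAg
Mup6, chr4:60003231-60003480, plus strand: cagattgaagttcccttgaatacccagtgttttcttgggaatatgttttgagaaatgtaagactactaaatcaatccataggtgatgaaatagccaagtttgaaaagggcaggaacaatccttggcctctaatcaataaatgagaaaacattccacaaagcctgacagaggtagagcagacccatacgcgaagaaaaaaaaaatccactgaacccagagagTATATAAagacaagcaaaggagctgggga
The Mup3 and Mup21 windows were 93.4% identical, over 244 aligned bases, whereas Mup6 was 88.3% identical to Mup3 and 84.0% identical to Mup21. Searched on both strands, TATATAA began 11 bases before the annotated start in Mup3, 8 bases before it in Mup21 and 29 bases before it in Mup6 and in Mup4. It was present in 11 of the 14 Mup windows of the table, against 3.04% of all 32851 windows. TGTTCT lay 204 and 198 bases before the start in Mup3 and Mup21, in 2 of the 14 Mup windows and 16.1% of all windows. Of the other motifs searched, AGGTCA, the half-site of several nuclear receptors, was found in Mup4 alone among the Mup windows (147 bases before the start, 14% of all windows), and TTCNNNGAA, the STAT element, in 0 of the 14 (7.02% of all windows). These are matches of letters within 250 bases and not measured sites.

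In vehicle-treated mice, Mup21, Mup3, Mup20 and Mup5 were all lower in FXR-/- livers than in wild-type livers, and Mup6 was not called in either direction. Mup21 had the largest difference of the 5, about 10.4-fold, followed by Mup3 at 6.50-fold, while Mup20 and Mup5 were 2.12-fold and 2.06-fold lower. All values are deposited log2 array values, a gene was called at a Benjamini-Hochberg adjusted p under 0.05 from limma over all genes, and differences are given as log2 difference ± SE. Of the 5 measured members 4 were called lower and 0 higher, against 12.1% of all genes called lower and 15.4% called higher in this contrast. In the same 4 members every FXR-/- array lay below every wild-type array, which was so for 5.67% of all genes. The median difference of the 5 members was −1.08, against −0.03 over all genes.

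Mup21 ranged over 4.82 to 6.03 with a median of 5.23 in FXR-/- livers, against 8.37 to 9.18 with a median of 8.65 in wild-type livers given vehicle. The highest FXR-/- liver was thus more than 2 log2 units under the lowest wild-type liver. The fitted difference was −3.38 ± 0.24 (95% interval −3.87 to −2.90, adjusted p = 3.13e-11), and 7 genes of the whole table had a larger fall.

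Mup3 ranged over 9.23 to 10.10 with a median of 9.88 in FXR-/- livers, against 12.41 to 12.58 with a median of 12.50 in wild-type livers. The 6 wild-type livers were almost level with each other and far above all FXR-/- livers. The difference was −2.70 ± 0.16 (95% interval −3.04 to −2.36, adjusted p = 2.16e-12), with 16 genes falling by more.

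Mup20, the darcin gene, ranged over 11.54 to 12.07 with a median of 11.88 in FXR-/- livers, against 12.80 to 13.09 with a median of 12.89 in wild-type livers. The groups did not overlap, but the gap was smaller than for Mup3. The difference was −1.08 ± 0.14 (95% interval −1.38 to −0.78, adjusted p = 2.05e-06).

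Mup5, a further lipocalin of the cluster, ranged over 4.23 to 4.78 with a median of 4.36 in FXR-/- livers, against 5.12 to 6.12 with a median of 5.35 in wild-type livers. The groups were separate, with a difference of −1.04 ± 0.14 (95% interval −1.32 to −0.76, adjusted p = 1.52e-06).

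Mup6 ranged over 10.97 to 11.34 with a median of 11.09 in FXR-/- livers, against 10.85 to 11.28 with a median of 11.08 in wild-type livers. The ranges overlapped over nearly their whole length. The difference was 0.05 ± 0.09 (95% interval −0.14 to 0.23, adjusted p = 0.748).

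**Figure D1:**
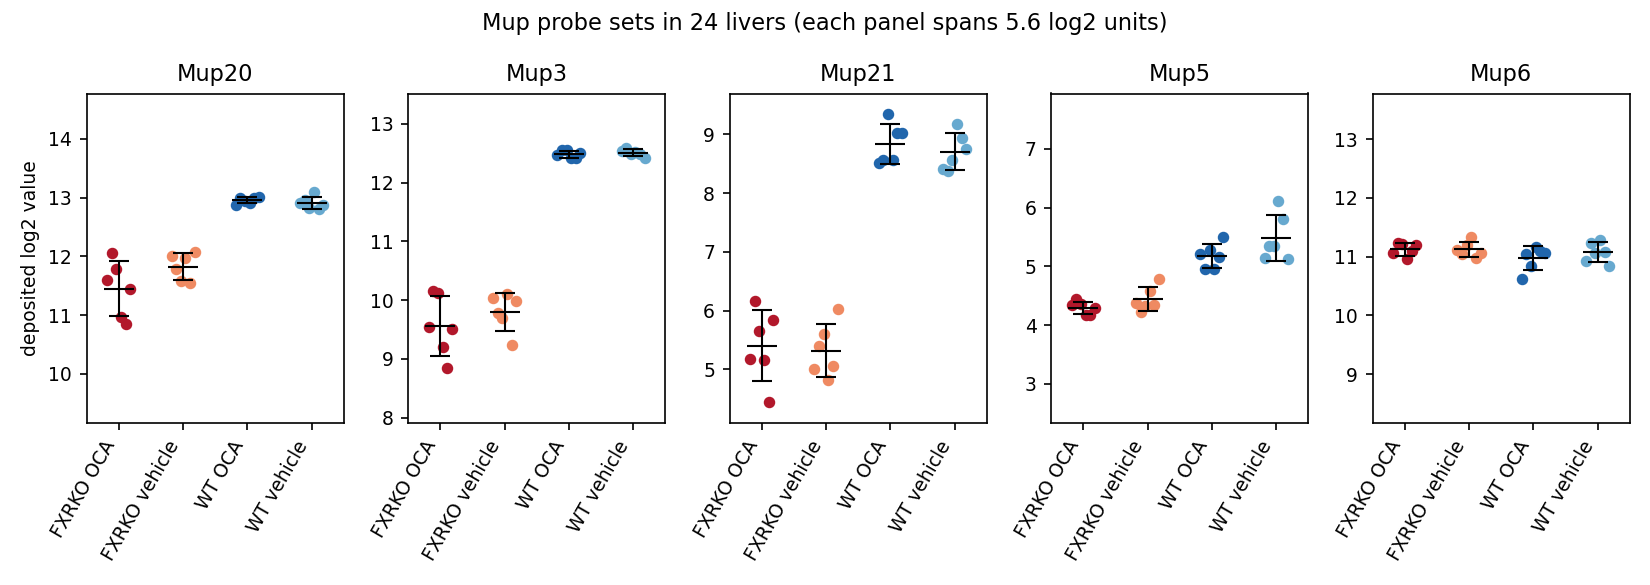
Deposited log2 values of the 5 Mup probe sets in 24 livers, 1 point per mouse, with the mean and SD of each group of 6; FXRKO stands for FXR-/-, and each panel has its own range of levels but the same height in log2 units. Mup20, Mup3, Mup21 and Mup5 lie lower in both FXR-/- groups than in both wild-type groups without overlap, whereas Mup6 overlaps in all 4 groups.

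In OCA-treated mice, a separate set of animals, Mup21, Mup3, Mup20 and Mup5 were again lower in FXR-/- livers and Mup6 was not called. In all, 4 of 5 members were called lower and 0 higher, against 13.3% and 17.4% of all genes, and the 4 showed no overlap between genotypes, against 7.48% of all genes that lay wholly lower. The median difference was −1.51 over the members and −0.02 over all genes.

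Mup21 ranged over 4.45 to 6.16 with a median of 5.41 in OCA-treated FXR-/- livers, against 8.51 to 9.34 with a median of 8.79 in OCA-treated wild-type livers, a difference of −3.43 ± 0.24 or 10.8-fold (adjusted p = 2.31e-11). Mup3 ranged over 8.85 to 10.16 with a median of 9.53 in FXR-/- livers, against 12.42 to 12.55 with a median of 12.48 in wild-type livers, a difference of −2.92 ± 0.16 or 7.57-fold (adjusted p = 5.01e-13). For Mup3 the FXR-/- livers were spread widely and the wild-type livers narrowly (SD 0.51 against 0.06). The spreads of Mup21 were closer to each other (SD 0.61 against 0.34). Mup20 ranged over 10.85 to 12.06 with a median of 11.52 in FXR-/- livers, against 12.88 to 13.01 with a median of 12.97 in wild-type livers, a difference of −1.51 ± 0.14 or 2.84-fold (adjusted p = 9.35e-09). Mup5 ranged over 4.17 to 4.44 with a median of 4.32 in FXR-/- livers, against 4.95 to 5.50 with a median of 5.18 in wild-type livers, a difference of −0.88 ± 0.14 or 1.84-fold (adjusted p = 1.47e-05). In Mup6, which ranged over 10.96 to 11.23 in FXR-/- livers and over 10.61 to 11.17 in wild-type livers, the difference was 0.15 ± 0.09 (95% interval −0.03 to 0.34, adjusted p = 0.221).

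An exact two-sided permutation of the 6 against 6 arrays, run gene by gene, gave Mup3, Mup5, Mup20 and Mup21 a p of 0.00216 in both genotype comparisons, the smallest that 924 splits allow. Groups of 6 that do not overlap always give this value, so for these 4 genes the test restates the separation described above. For Mup6 the exact p was 0.587 under vehicle and 0.136 under OCA.

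OCA itself moved none of the 5 members past the threshold in either genotype. In wild-type livers 0 of 5 were called, in a contrast where 13 genes (0.0691% of all) were called. That total rose to 667 with the array code number, described below, as a block, again with 0 members. In the main fit 1782 genes had an unadjusted p under 0.05, among them 1 member. That member was Mup5, with a median of 5.18 under OCA and 5.35 under vehicle and a difference of −0.31 ± 0.14 (95% interval −0.59 to −0.02, unadjusted p = 0.0343, adjusted p = 0.484). The 95% interval of the OCA effect in wild-type livers ran from −0.36 to 0.32 for Mup3, from −0.25 to 0.35 for Mup20, from −0.29 to 0.08 for Mup6 and from −0.35 to 0.62 for Mup21. For Mup3, Mup20, Mup21 and Mup5 the differences between genotypes lay outside these intervals.

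In FXR-/- livers OCA also gave 0 calls of 5, with 3 genes called in all (0.0159%) and 968 at an unadjusted p under 0.05, again with 1 member among them. Mup20 had a median of 11.52 under OCA and 11.88 under vehicle, and the difference was −0.37 ± 0.14 (95% interval −0.67 to −0.08, unadjusted p = 0.0159, adjusted p = 0.9). The OCA and vehicle ranges of Mup20 overlapped from 11.54 to 12.06. The differences of the other members were −0.24 ± 0.16 for Mup3, −0.14 ± 0.14 for Mup5, 0.00 ± 0.09 for Mup6 and 0.08 ± 0.24 for Mup21. By limma, the test of whether the OCA effect differed between FXR-/- and wild-type livers called 0 members and 0 genes of 18820 (0%; 1140 genes at an unadjusted p under 0.05). Its value for Mup20 was −0.42 ± 0.20 (unadjusted p = 0.0489, adjusted p = 0.822), and for the other 4 the adjusted p was 0.919 or more.

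**Figure D2:**
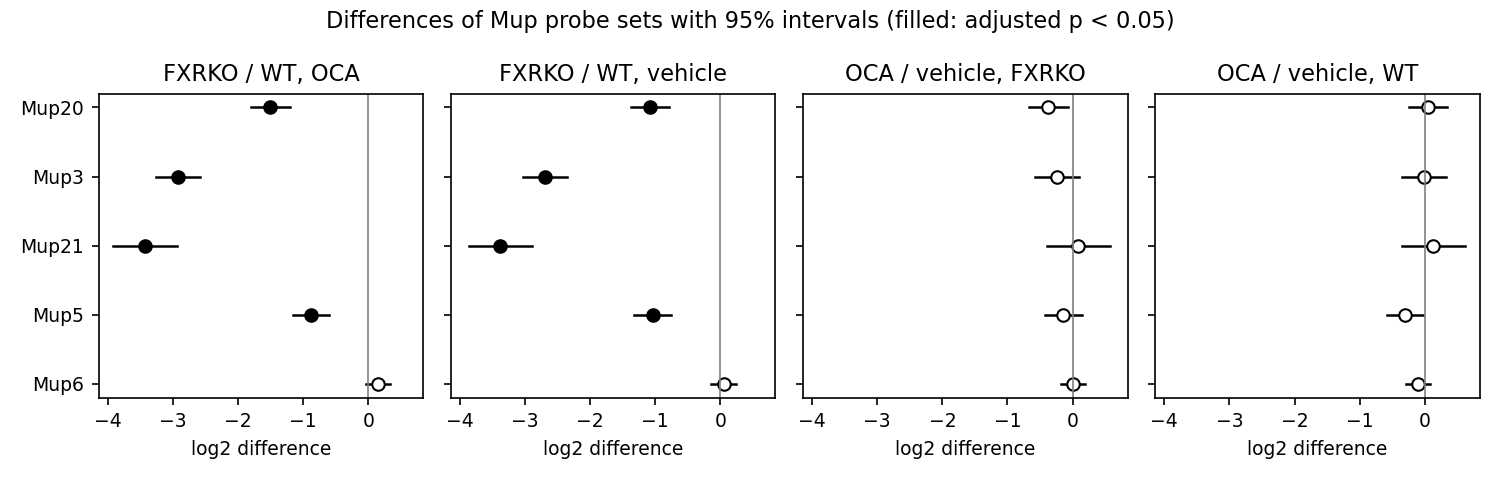
Log2 differences (horizontal axis) with 95% intervals for the 5 Mup probe sets in 4 comparisons, with filled points where the adjusted p was under 0.05. Both FXR-/- against wild-type panels have 4 filled points, all left of 0, and both OCA against vehicle panels have none.

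Put in order of level, each of Mup3, Mup20, Mup21 and Mup5 had both FXR-/- groups under both wild-type groups. Mup3 averaged 9.56 ± 0.51 in FXR-/- OCA livers, 9.80 ± 0.32 in FXR-/- vehicle livers, 12.48 ± 0.06 in wild-type OCA livers and 12.50 ± 0.06 in wild-type vehicle livers (SD, n = 6 each). Within a genotype the neighbouring groups differed by less than their spread, and the one gap in the order lay between the genotypes. Mup20 averaged 11.45 ± 0.47, 11.83 ± 0.22, 12.96 ± 0.05 and 12.91 ± 0.11 in the FXR-/- OCA, FXR-/- vehicle, wild-type OCA and wild-type vehicle groups. Mup21 averaged 5.41 ± 0.61, 5.32 ± 0.45, 8.83 ± 0.34 and 8.70 ± 0.32 in the same order of groups. Both again had a single gap, between the genotypes. Mup5 averaged 4.29 ± 0.11, 4.44 ± 0.20, 5.18 ± 0.21 and 5.48 ± 0.40 in that order. Mup6, with no gap between any of its groups, averaged 11.13 ± 0.11, 11.12 ± 0.13, 10.97 ± 0.21 and 11.08 ± 0.17.

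The position of these values on the array scale bears on the size of the folds. The highest value on any array was 13.4 to 13.6, so wild-type Mup3 and Mup20 lay near the top of the scale, where their SD was 0.05 to 0.11, against 0.22 to 0.51 in FXR-/- livers. At the other end, Mup5 ranged over 4.17 to 4.78 in FXR-/- livers, around the array medians of 4.57 to 4.65. Mup21 also came down to these medians in FXR-/- livers, with 4.45 to 6.16 under OCA and 4.82 to 6.03 under vehicle, so its 10.8-fold and 10.4-fold differences and its place as the largest of the 5 rest on values near them. No detection calls were used, and how far either end compresses the folds was not tested.

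PC1 of the 24 arrays carried 54.9% of the variance and separated the genotypes. Nr1h4 itself ranged over 9.80 to 10.13 in FXR-/- livers and 9.85 to 10.30 in wild-type livers (adjusted p = 0.0935 under vehicle); where its probes lie relative to the deletion is not known here, so it checks nothing. The FXR target Nr0b2, which encodes the repressor SHP, was at most 4.82 in FXR-/- livers and at least 5.87 in wild-type livers. In wild-type livers Nr0b2 averaged 8.00 under OCA and 6.59 under vehicle. Of 4 genes taken to check FXR activity (Nr1h4, Nr0b2, Slc51b and Cyp8b1), OCA called 2 higher and 1 lower in wild-type livers. In FXR-/- livers it called 0 of the 4. Wild-type vehicle replicate 6 stood apart, with 532 genes over 2-fold from its group mean, against 2 to 90 on the other 23 arrays. That array held the lowest Mup3, Mup5 and Mup6 values of its group, and without it the vehicle differences were −2.72 for Mup3, −1.11 for Mup5, −1.09 for Mup20 and −3.37 for Mup21.

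The array codes in the labels carry a number, 5, 7 or 9, whose meaning is not given. All FXR-/- OCA arrays have number 9 and all wild-type OCA arrays number 5, so under OCA genotype and number coincide; under vehicle, number 7 holds 4 arrays of each genotype. Within number 7 alone, the FXR-/- minus wild-type difference was −2.78 for Mup3 (adjusted p = 1.78e-06), −3.25 for Mup21 (1.46e-05), −1.15 for Mup20 (1.03e-04) and −0.98 for Mup5 (0.00413), with 0.01 for Mup6. With the number as a block, which ties the OCA groups together only through the vehicle arrays, the differences under OCA were −3.16 for Mup3, −3.04 for Mup21 and −1.71 for Mup20, all called. Mup5 lost its call there, at −0.71 with an adjusted p of 0.175 by limma. Treatment was tied to the number too. Only 2 wild-type vehicle arrays have number 5, and only 2 FXR-/- vehicle arrays have number 9. Blocking on the number raised the limma calls between OCA and vehicle in wild-type livers from 13 to 667. It raised those of the interaction from 0 to 34. Within number 5 alone, OCA called 5 genes in wild-type livers. None of these calls was a Mup member.

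Another scaling moved the background of these comparisons. Centring each array on its median shifted the median gene to −0.20 under vehicle and −0.21 under OCA and turned the calls of 2903 higher and 2271 lower under vehicle into 1776 higher and 8354 lower, and those of 3280 and 2500 under OCA into 1878 and 9221. Under quantile normalization they were 2526 higher and 2863 lower under vehicle, and 2805 and 3214 under OCA. Mup3, Mup20, Mup21 and Mup5 stayed called lower under both scalings, and Mup6 turned to −0.12 under vehicle and −0.04 under OCA with median centring, uncalled.

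Within the FXR-/- groups, livers that were low in Mup3 were also low in Mup20. Across the 12 FXR-/- livers, deviations of Mup3 and Mup20 from their group means gave Pearson r = 0.93 and Spearman rho = 0.94 (permutation p = 2e-04 and 3.2e-04, adjusted p = 0.004 and 0.0064 over 20 relations). Without the 2 livers farthest from the Mup3 median r was 0.87, and within array number 9 alone, 8 livers, it was 0.96. Mup5 and Mup20 gave r = 0.69 and rho = 0.83 in the same livers (permutation p = 0.0011 and 0.0019, adjusted p = 0.011 and 0.019), 0.87 without the 2 farthest and 0.78 within number 9.

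FXR-/- OCA replicates 5 and 4 had the lowest values of their group for Mup3 (8.85 and 9.21), Mup20 (10.85 and 10.96), Mup5 (4.17 and 4.18) and Mup21 (4.45 and 5.16). Replicate 2 had the highest, at 10.16, 12.06, 4.44 and 6.16 for the same genes. The r of Mup21 with Mup3 and with Mup20 was 0.87 and 0.84 in the FXR-/- OCA livers, but 0.04 and 0.09 in the FXR-/- vehicle livers. In the 12 wild-type livers the Mup3 and Mup20 deviations gave r = 0.40 and rho = 0.52 (permutation p = 0.23 and 0.11, adjusted p = 0.415 and 0.22), over a range of levels that was much narrower. Whether the correlation differs between genotypes was not tested, and all other relations of the 20 had an adjusted p of 0.0667 or more for r. Signal shared between close copies would also move such pairs together, and its part was not tested.

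**Figure D3:**
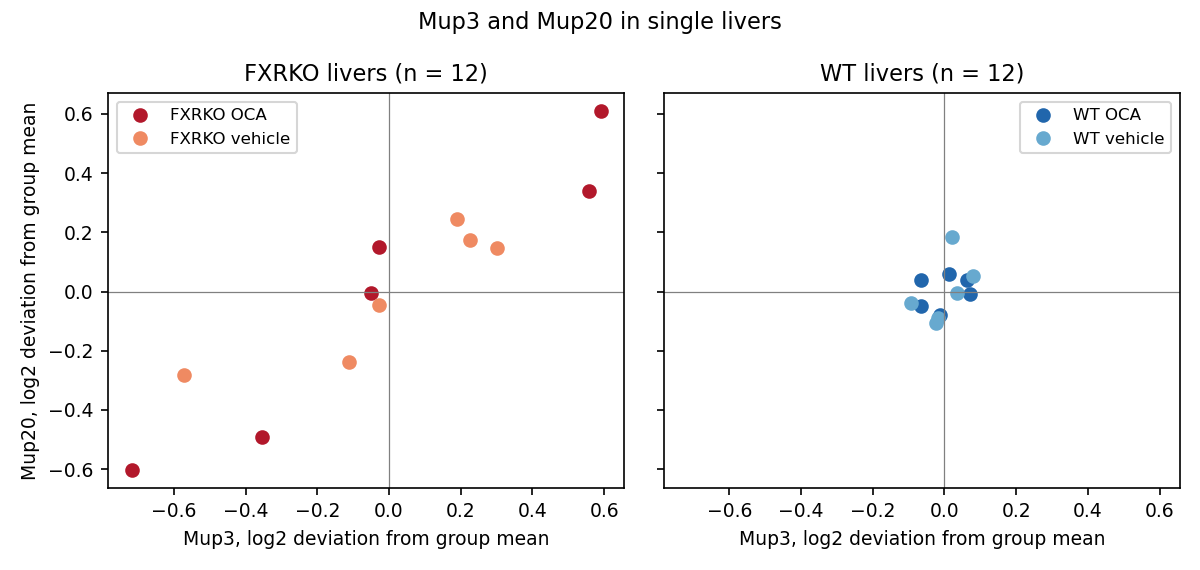
Deviation of Mup20 (vertical axis) against deviation of Mup3 (horizontal axis), both in log2 units from the mean of the mouse's own group, for 12 FXRKO (FXR-/-) livers on the left and 12 WT livers on the right. The FXR-/- livers spread along a rising line (r = 0.93), and the wild-type livers sit close to 0 on both axes.

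The Mup genes form a single cluster on chromosome 4, with 22 Mup genes besides pseudogenes in the RefSeq annotation, of which 5 had a probe set of their own. Mup5, Mup20, Mup3 and Mup21, the 4 that fell, follow each other in the order of named Mup genes at the end next to Zfp37, and Mup6 lies at the opposite end, between Mup4 and Mup7. The nearest flanking gene at either end was not called lower in the values as deposited. Zfp37, a zinc finger gene next to Mup21, was higher in FXR-/- livers (0.75 ± 0.11 under vehicle, adjusted p = 6.49e-06), as was the copper transporter relative Slc31a2 beyond it (0.55 ± 0.13, adjusted p = 0.00215). Slc46a2, a solute carrier at the Mup4 end, differed by −0.17 ± 0.11 (adjusted p = 0.245). In wild-type vehicle livers Zfp37 ranged over 3.82 to 4.21 and Slc46a2 over 2.35 to 3.11, under the array medians of 4.57 to 4.65. A fall like that of the Mup genes could hardly show at such levels, so neither gene tells where the fall ends.

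Of the 14 flanking genes with a probe set, 7 on each side, 3 were called higher (Zfp37, Slc31a2 and Hsdl2) and 1 lower (Rnf183, −0.33) under vehicle, with a median of 0.03, against 15.4% and 12.1% of all genes. With median centring, whose median gene is at −0.20, these counts were 2 higher and 7 lower. Over all 18820 genes that scaling called 1776 higher and 8354 lower under vehicle. Under OCA 3 flanking genes were called higher and 2 lower (1 and 0 with the array number as a block). The Mup genes between Mup6 and Mup5 were not listed with a probe set of their own, and probe sets mapped to several symbols were not examined. Where along the cluster the difference begins was therefore not measured.

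**Figure D4:**
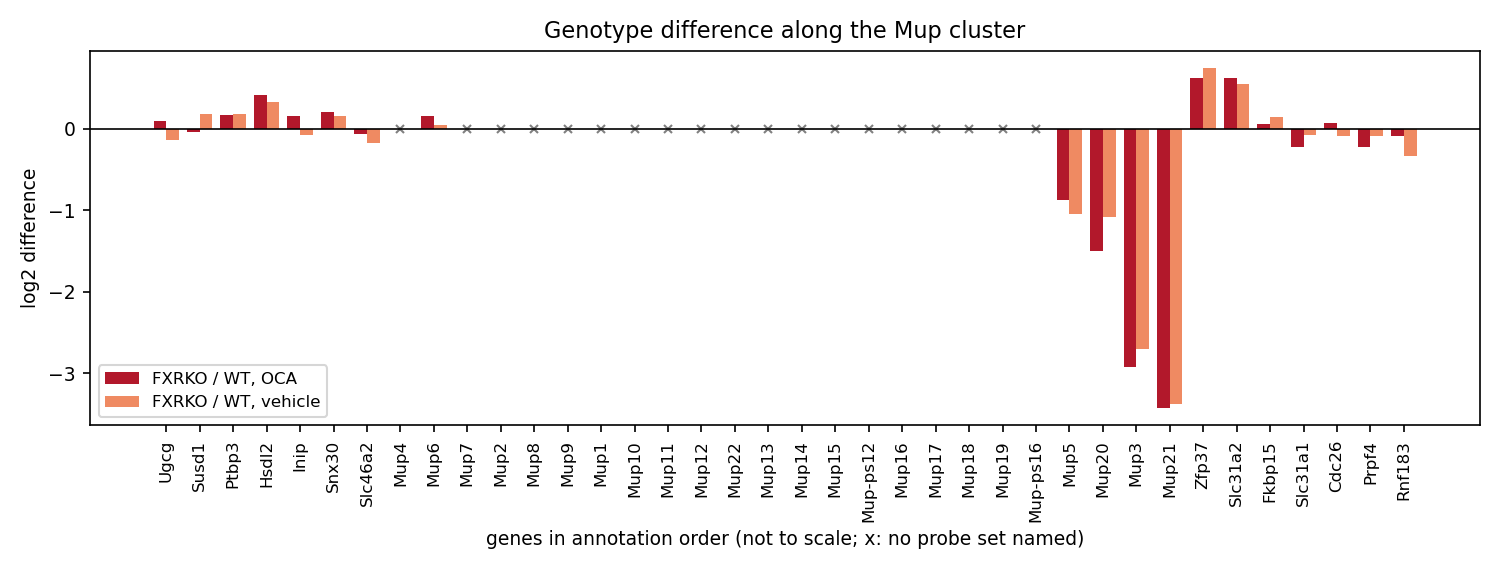
Log2 difference of FXRKO (FXR-/-) over WT livers under OCA and under vehicle (vertical axis) for the Mup genes and 7 flanking genes on each side, in the order of the RefSeq annotation and not to scale; a cross marks a gene with no probe set named. The 4 adjacent genes Mup5, Mup20, Mup3 and Mup21 lie under 0, between −0.88 and −3.43; Mup6 lies at 0.05 and 0.15, and the flanking genes lie between −0.33 and 0.75.

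Other genes with a known sex difference in mouse liver were set beside the Mup genes, in lists chosen with earlier results on these mice known, so their direction is not independent evidence. Of 16 measured male-biased genes, 16 were called lower in FXR-/- livers under vehicle and 16 under OCA (11 with the array number as a block), with medians of −1.90 and −2.01. Under vehicle the difference was −7.48 ± 0.29 for Elovl3, a fatty acid elongase, −6.40 ± 0.25 for Slco1a1, an organic anion transporter, −7.08 ± 0.30 for Hsd3b5, a steroid dehydrogenase, and −3.01 ± 0.14 for the cytochrome Cyp2d9. The Mup21 and Mup3 differences thus lay within the range of this list, −7.48 to −0.37, and those of Mup20 and Mup5 on its smaller side. Of 12 measured female-biased genes, 9 were called higher and 0 lower under vehicle, with a median of 2.17 (10 higher under OCA, median 1.73; 6 with the array number as a block). Among them were the cytochromes Cyp2b13 (7.25 ± 0.18), Cyp2b9 (7.40 ± 0.38) and Cyp17a1 (2.59 ± 0.22) and the monooxygenase Fmo2 (2.09 ± 0.22). The shares of all genes called lower were 12.1% under vehicle and 13.3% under OCA, and those called higher 15.4% and 17.4%. OCA gave 0 calls in both lists in either genotype. Over all genes it called 0.0691% in wild-type and 0.0159% in FXR-/- livers, so 0 calls do not set these lists apart.

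Of 12 genes of growth hormone signalling, which drives many Mup genes in male liver, 7 were called lower and 3 higher under vehicle. The counts were the same under OCA (3 lower with the array number as a block), and the medians were −0.39 and −0.42. The shares over all genes were 12.1% lower and 15.4% higher under vehicle, and 13.3% and 17.4% under OCA. The receptor Ghr differed by −0.39 ± 0.05 under vehicle (adjusted p = 5.01e-07), its transcription factor Stat5b by −0.39 ± 0.11 (adjusted p = 0.00693), the feedback inhibitor Socs2, a STAT5 target, by −1.48 ± 0.29 (adjusted p = 3.22e-04) and the secreted growth factor Igf1 by −0.68 ± 0.07 (adjusted p = 2.34e-08). Igfbp3, which binds IGF1 in blood, was higher by 1.18 ± 0.12 (adjusted p = 5.19e-08). Stat5b was named after its value was seen.

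Of 9 measured genes for transcription factors and hormone receptors of the liver that bear on Mup expression, 0 were called higher. Their median difference was −0.32 under vehicle and −0.52 under OCA. In this list 4 were called lower under vehicle and 5 under OCA, against 12.1% and 13.3% of all genes. Under vehicle these were the thyroid hormone receptor Thrb (−0.52 ± 0.08), the nuclear receptor Hnf4a (−0.52 ± 0.08) and the forkhead factors Foxa3 (−0.47 ± 0.13) and Foxa2 (−0.59 ± 0.18). The count depended on 1 array, being 7 under vehicle and 9 under OCA without wild-type vehicle replicate 6, and on the scaling, being 8 and 9 with median centring. That centring called 8354 of all 18820 genes lower under vehicle and 9221 under OCA. Zhx2, a homeobox factor known to repress fetal genes such as Afp and to be needed for full Mup expression in mouse liver, was called lower under OCA (−0.57 ± 0.09, adjusted p = 3.3e-05) and had a value of −0.11 ± 0.09 under vehicle (adjusted p = 0.416). The interaction was not called for any gene, and Zhx2 was named after its value was seen.

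Secreted lipocalins encoded outside the Mup cluster were called in both directions. Of 10 lipocalin genes outside the cluster 3 were called higher and 4 lower in FXR-/- livers under vehicle. The numbers were the same under OCA, and the medians were −0.05 and 0.02. Over all genes 15.4% were called higher and 12.1% lower under vehicle, and 17.4% and 13.3% under OCA. Orm2 (3.43 ± 0.44) and Orm3 (2.65 ± 0.42), acute-phase orosomucoids, were higher, while Ptgds, a prostaglandin synthase (−1.39 ± 0.18), and C8g, the gamma chain of complement component 8 (−0.53 ± 0.05), were lower. With median centring the lower count under vehicle was 6 and the median −0.21. That scaling called 8354 of 18820 genes lower under vehicle, with the median gene at −0.20.

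**Figure D5:**
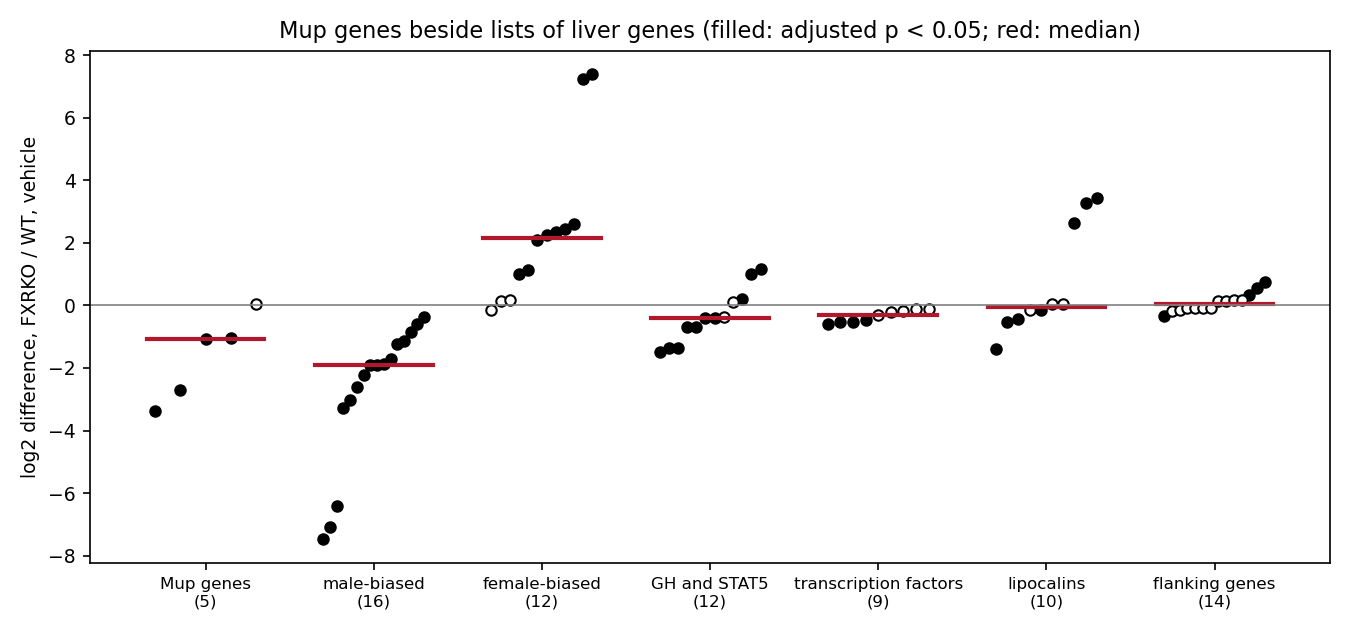
Log2 difference of FXRKO (FXR-/-) over WT livers under vehicle (vertical axis) for each measured gene of 7 lists, with filled points at an adjusted p under 0.05 and the median of each list in red. The Mup genes (median −1.08) lie on the side of the male-biased genes (−1.90), and the female-biased genes lie on the other side of 0 (2.17).

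Hepatocytes make the Mup proteins, and in bulk liver fewer cells of a type and less RNA per cell cannot be told apart. Of 7 measured hepatocyte markers such as Alb (albumin) and Apoa1, 1 was called lower under vehicle (median −0.09) and 5 under OCA (median −0.14). The shares of all genes called lower were 12.1% and 13.3%. With the array number as a block, which called 933 of 18820 genes lower under OCA, 0 of these markers were called lower there. With median centring, which called 8354 genes lower under vehicle and 9221 under OCA, 7 of these markers were called lower in both comparisons. Their mean per array was 12.71 to 12.95 in FXR-/- OCA livers, 12.82 to 12.94 in FXR-/- vehicle livers, 12.97 to 13.08 in wild-type OCA livers and 12.96 to 13.03 in wild-type vehicle livers. These markers lie close to the array maxima of 13.4 to 13.6, and their shift is not comparable in size with that of Mup21 or Mup5, which lie lower on the scale. Under vehicle, 4 of 7 Kupffer cell markers were called higher in FXR-/- livers (array means of 8.09 to 8.48 against 7.31 to 8.48) and 5 of 6 stellate cell markers (7.94 to 8.19 against 7.43 to 7.66). Under OCA it was 5 of 7 and 5 of 6 (3 of 6 with the array number as a block). Over all genes 15.4% were called higher under vehicle and 17.4% under OCA. Under vehicle 1 of 6 endothelial markers was called lower, and 2 of 5 cholangiocyte, 1 of 3 adipocyte and 0 of 2 exocrine pancreas markers were called higher. The part of other cell types in the Mup differences was not tested.

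Genes whose pattern was most like each Mup gene were found by Pearson r over the 24 livers among 9240 genes, which mostly reflects the genotype step and is given as a description. Mup3 was closest to Sult2a8, a bile acid sulfotransferase (r = 0.99), Cyp2d9 (0.99) and Slco1a1 (0.98). Mup20 was closest to the cytochromes Cyp2c67 (0.97) and Cyp4a12b (0.97) and the carboxylesterase Ces3a (0.97), and Mup21 to the EGF receptor gene Egfr (0.98), the complement gene C9 (0.98) and Tedc2 (0.97). Mup5 was closest to Selenbp2 (0.94), Amacr (0.93) and Otc (0.93), and Mup6, with no genotype step, to Dcaf11 at no more than 0.76.

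With the group means removed, so that only differences between mice of the same group count, other genes came first. St3gal3, a sialyltransferase, led for both Mup3 (r = 0.81) and Mup20 (0.87), followed by Sult2a8 (0.77) and Cyp2c67 (0.77) for Mup3 and by the male-biased cytochromes Cyp4a12a (0.85) and Cyp4a12b (0.85) for Mup20. Mup21 came nearest to Gpn1 (0.78), Mup5 to Snx29 (0.80) and Mup6 to Mfsd6 (0.79). These values were picked as the largest of 9240 per member, and none was tested. Mup3 and Mup20 deviations came mostly from FXR-/- livers, with group SDs of 0.22 to 0.51 against 0.05 to 0.11 in wild-type livers. Gpn1 and Mfsd6 were not called between FXR-/- and wild-type livers under vehicle, at 0.02 ± 0.12 and −0.21 ± 0.08 (adjusted p = 0.923 and 0.0607). Snx29 and St3gal3 were called lower there by limma, at −0.75 ± 0.16 and −0.20 ± 0.07 (adjusted p = 6.30e-04 and 0.0385). St3gal3 was not called under OCA (adjusted p = 0.0703 by limma).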

How the data were processed

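Liver RNA of 24 mice was measured on whole-transcript arrays. The deposited log2 values entered the fit unaltered. Per the submitters' processing notes RMA produced them, its version and log base not given in the sources used here; values of 0.873 to 13.6 were read as log2. Per the labels' protocols, RNA (RNeasy micro kit) was converted with the Ambion WT expression kit and labelled with biotin. Precision is limited by the 6 arrays per group.

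Of 35556 probe sets, 21218 mapped to 1 symbol, 1881 to several and 12457 were not listed. Symbols were updated by gene number for 21185 from RefSeq GRCm38.p6, used for names and order of genes. The probe set with the highest mean was kept per symbol, leaving 18820 genes. A model of 4 group means was fitted with limma 3.58.1 in R 4.3.3 (20 residual and 4.465 prior degrees of freedom), with Benjamini-Hochberg adjustment over all genes, and was tested on simulated data. Alternatives were median centring, quantile normalization, a filter at the median gene, trend and robust variance, array weights, only the groups compared, array code number and letter as blocks, 1 number alone, every probe set in place of 1 per gene, the replicate number as a block, and fits without arrays whose names end in _2 or without each array in turn. Exact permutation per member and the list counts under other settings were added after the data were seen. Promoters were searched with Python 3.11.15 and aligned with Biopython 1.88; figures used matplotlib 3.10.9. The Mup members and all gene lists were chosen with earlier results of these data known. By rule the text named all members, up to 4 genes per list with the smallest p under vehicle, and the 3 most alike genes per member and measure, skipping predicted genes.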

Additional observations from a re-analysis of the deposited data

How the results depend on the processing

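By limma, 3 to 4 of the 5 members were called lower in FXR-/- livers under every alternative, under vehicle as under OCA; the filter at the median gene took out Mup5, and the array number as a block ended its call under OCA (−0.71, adjusted p = 0.175). Without each array in turn the count was 4 in both comparisons. OCA and the interaction called 0 members under every alternative run. The replicate numbers do not pair the mice: same-numbered arrays correlated at −0.08 to 0.17 after removing group means, and 3 of 36 correlated best with their own number. With the replicate block 4, 4, 0, 0 and 0 members were called for FXR-/- against wild type under vehicle and under OCA, OCA in wild type, OCA in FXR-/- and the interaction.

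Uncalled values near 0 changed sign. Median centring gave Mup6 −0.12 and −0.039 between genotypes under vehicle and OCA, and −0.0095 for OCA in FXR-/- livers. With the number as a block, and within 1 number, OCA in wild-type livers gave 0.040 for Mup3, −0.0089 for Mup21 and 0.0073 for Mup6, and the block gave 0.21 for the Mup21 interaction. With the array letter as a block OCA in FXR-/- livers gave −0.075 for Mup21 and −0.039 for Mup6, and −0.040 for Mup6 without the arrays ending in _2. Without each array in turn the Mup21 interaction ran from −0.20 to 0.14, and OCA in FXR-/- livers from −0.068 to 0.28 for Mup21 and from −0.029 to 0.045 for Mup6. The causes were not tested.

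Calls over all genes moved more. Between genotypes they were 5174 under vehicle and 4281 to 10130 over the alternatives, and 5780 and 2334 to 11099 under OCA. For OCA against vehicle they were 13 and 2 to 667 in wild-type livers (4 with the replicate block). In FXR-/- livers these were 3 and 0 to 11. The interaction gave 0 and 0 to 34. The values 4281, 2334, 667 and 34 all came with the array number as a block.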
